A study of Homo sapiens with 12 samples.

Results

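The mRNAs of 58 proteins of the splicing machinery were followed in 2 retinoblastoma cell lines exposed to THZ1. The 58 genes are those of the deposited count table whose symbol marks a pre-mRNA processing factor (PRPF, 13 genes), a subunit of SF3a or SF3b (SF3, 9 genes), an Sm or snRNP protein (SNRP, 12 genes), a U2AF subunit (U2AF, 4 genes), an SR protein (SRSF, 12 genes) or an Lsm protein (LSM, 8 genes). They are 58 of 27505 features in the table and 58 of its 19974 Ensembl genes, and all 58 passed the filter on low counts, as did 14865 Ensembl genes in all. The 4 groups were Y79 and WERI-Rb-1 cells (written WERI) kept for 12 h in 50 nM THZ1, and the same lines kept for 12 h in 0.1% DMSO, with 3 cultures a group and the genotype labelled WT throughout. Both are established lines grown from human retinoblastoma, each a single line, and the series was made to follow how THZ1 alters transcription in such cells. THZ1 is a covalent inhibitor of CDK7, the kinase of the transcription factor TFIIH, and also binds CDK12 and CDK13.

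Pre-mRNA splicing is carried out by small nuclear ribonucleoproteins (snRNPs) that assemble anew on each intron. U1 binds the upstream splice site, U2AF and U2 with SF3a and SF3b mark the branch point and the downstream splice site, and the tri-snRNP of U4, U6 and U5 brings the catalytic parts. SR proteins bind exons and help choose the sites, Sm rings hold the snRNAs of U1, U2, U4 and U5, and an Lsm ring holds U6. The retina is known to be sensitive to this machinery: inherited variants of PRPF3, PRPF4, PRPF6, PRPF8 and PRPF31 cause retinitis pigmentosa.

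Libraries held 29677575 to 37433574 counts. Levels are given as CPM, library counts put on a common scale with TMM factors, which sets the bulk of genes level between libraries, and a change is the log2 fold change of THZ1 over DMSO with its standard error (SE) from the edgeR model. Genes were called where the adjusted p was below 0.05. The 13 mitochondrial mRNAs took 9.79 to 11.2% of counts with THZ1, against 3.74 to 3.93% with DMSO, in WERI, and 8.44 to 9.73% with THZ1, against 3.94 to 4.46% with DMSO, in Y79, so the scale matters here. With total counts alone as the scale, the median change of all 14865 genes was -0.56 in WERI and -0.65 in Y79, and with the mitochondrial mRNAs as the scale it was -2.01 and -1.80. "Rose" and "fell" below are therefore relative to the bulk of genes. Replicate 2 of Y79 with THZ1 stood apart from its partners: its counts differed from theirs by a chi-square of 67.3 and 68.5 per degree of freedom, where all other pairs within groups gave 7.37 to 13. Many values that rest on it are also given without it. Some are not, among them the changes of PRPF3 and SRSF2 in Y79 and the ratios between partners. CDK7 mRNA fell by 1.89 in WERI and by 1.83 in Y79 on the log2 scale, and THZ1 acts on the protein, so this does not check the labels. The 11 markers of retinoblastoma and photoreceptor precursors, none at 0 in any group, summed to 1910 to 1930 CPM of total counts in WERI with THZ1, against 3740 to 3850 with DMSO, and to 1230 to 1330 in Y79 with THZ1, against 3160 to 3210 with DMSO. The 10 markers of glia and pigment epithelium summed to 187 to 203 in WERI with THZ1, against 204 to 217 with DMSO, and to 326 to 394 in Y79 with THZ1, against 559 to 585 with DMSO, with TYR at 0 in all groups. The 11 markers of stroma, endothelium and blood summed to 50.5 to 52 in WERI with THZ1, against 33.6 to 39.1 with DMSO, and to 3.57 to 5.06 in Y79 with THZ1, against 3.38 to 4.3 with DMSO. Their part in the results was not tested. In bulk RNA, fewer cells of a kind and less RNA per cell cannot be told apart.

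In every class some mRNAs rose and others fell with THZ1 on the TMM scale, in both lines, whereas none rose with mitochondrial scaling. In WERI 26 of the 58 mRNAs rose (44.8%) and 14 fell (24.1%), against 27.7% and 37.2% of all 14865 genes (64.8% either way), and the median change was 0.15, against -0.11 over all genes. In Y79 23 rose (39.7%) and 21 fell (36.2%), against 29.9% and 38.5% of all genes (68.3% either way), and the median change was 0.01, against -0.09. Without replicate 2 of Y79 with THZ1, 22 rose and 27 fell in Y79, against 29% and 39.7% of the 15111 genes then tested, and the median was -0.16, against -0.11 over all genes, so that it then lay below theirs. By at least 2-fold, 9 mRNAs rose (15.5%, background 11.3%) and 4 fell (6.9%, background 16.7%) in WERI, while in Y79 8 rose (13.8%, background 14.4%) and 11 fell (19%, background 19.9%). In WERI the 3 treated cultures lay above all controls for 31 mRNAs and below them for 17, against 33.1% and 42.8% of all genes, and in Y79 above for 23 and below for 22, against 29.4% and 39.5%. The rises depend on the TMM scale: with mitochondrial scaling 0 of 58 rose in either line, against 0.747% of all genes in WERI and 1.9% in Y79, and 56 fell in WERI and 52 in Y79, against 89.7% and 82% of all genes. With total counts alone 14 rose and 30 fell in WERI, against 14.9% and 53.6% of all genes, and 9 rose and 38 fell in Y79, against 14.6% and 56.1%. All 14 falls in WERI and all 21 in Y79 were called on all 3 scales.

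**Figure D1:**
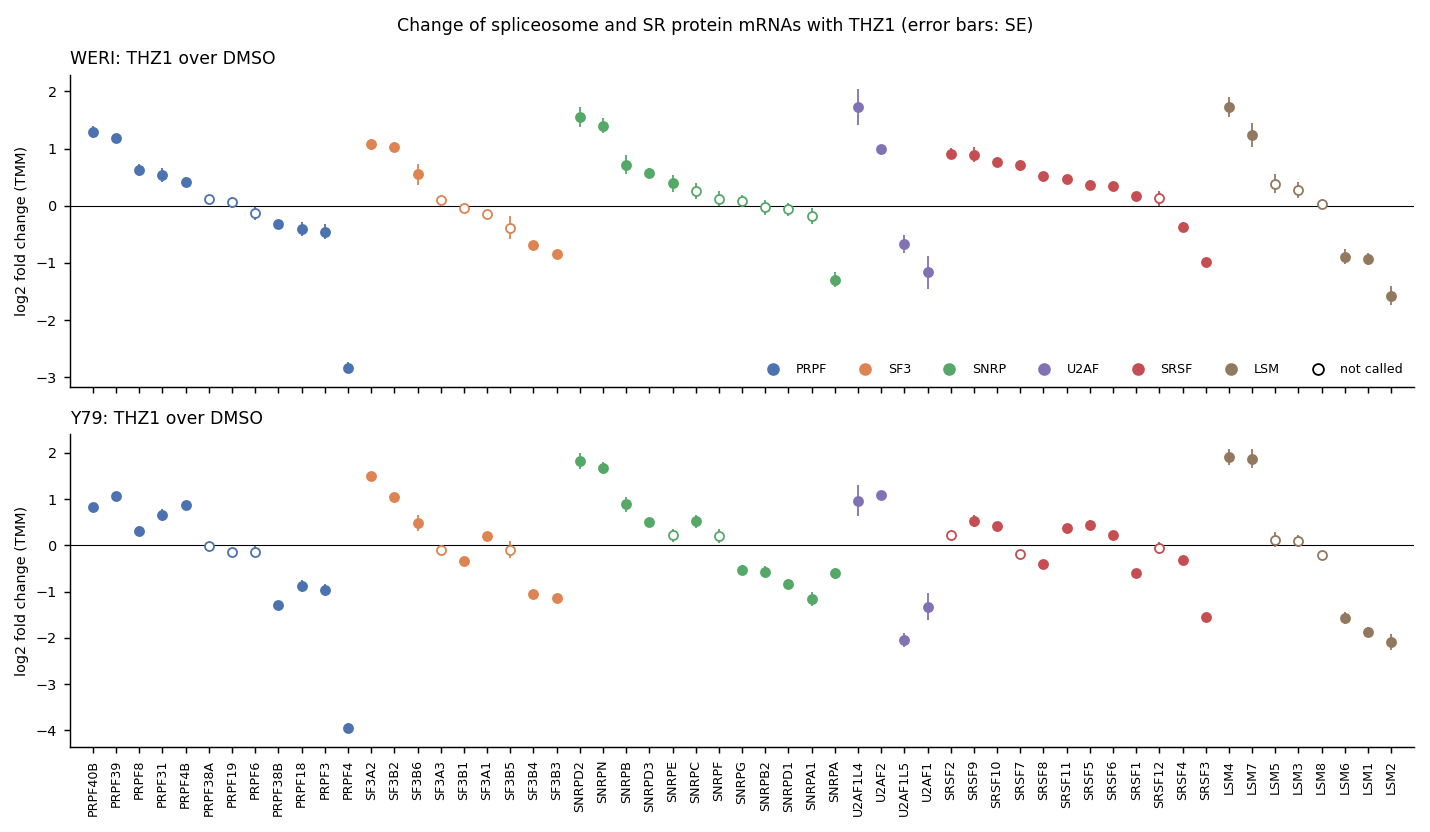
Log2 fold change of THZ1 over DMSO on the TMM scale (vertical axis, with SE) for the genes reported by name (horizontal axis, by class, ordered by the change in WERI), in WERI above and Y79 below, with filled points for called genes. PRPF4 is the lowest point in both panels, LSM4 and SNRPD2 lie among the highest, and every called rise becomes a value that is negative or not called under mitochondrial scaling.

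The calls were largely shared between the lines, which share no libraries but were fitted in the same model, so their calls are not independent. The 21 mRNAs that rose in both lines make 80.8% of those that rose in WERI and 91.3% of those that rose in Y79 (over all genes, 78.9% and 73.1%). The 14 that fell in both make 100% of those that fell in WERI and 66.7% of those in Y79 (over all genes, 83.2% and 80.3%). SRSF1 and SRSF8 were called higher in WERI and lower in Y79 on the TMM scale. That is 2 of the 26 that rose in WERI, against 144 of 4115 over all genes. Of the 14 that fell in WERI, 0 rose in Y79, against 115 of 5523 over all genes. The rises of SRSF1 and SRSF8 are not found under mitochondrial scaling, where both genes were lower in both lines.

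Promoters of 6 genes that head these groups are shown, 3 that fell in both lines (PRPF4, LSM2, SRSF3) and 3 that rose in both on the TMM scale (LSM4, SNRPD2, U2AF2). The windows are from RefSeq on GRCh38.p14 and run from 120 bases before the transcription start to 30 bases after it, 5′ to 3′ on the gene's strand. They lie at chr9:113275538-113275687 on the plus strand for PRPF4, chr6:31806937-31807086 on the minus strand for LSM2, chr6:36594242-36594391 on the plus strand for SRSF3, chr19:18323047-18323196 on the minus strand for LSM4, chr19:45692287-45692436 on the minus strand for SNRPD2 and chr19:55654915-55655064 on the plus strand for U2AF2. Capitals mark exact matches, on either strand, to a core of the TATA box, a CCAAT box, a GC box or an ETS core. The TATA box core searched for was TATAAA. For the GC box, bound by SP1 and its relatives, it was GGGCGG. For the ETS family of transcription factors it was CCGGAAG. GC boxes that overlap or touch are run together.
PRPF4: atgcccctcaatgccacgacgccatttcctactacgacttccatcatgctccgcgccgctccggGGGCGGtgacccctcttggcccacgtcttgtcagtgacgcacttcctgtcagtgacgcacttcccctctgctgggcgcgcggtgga
LSM2: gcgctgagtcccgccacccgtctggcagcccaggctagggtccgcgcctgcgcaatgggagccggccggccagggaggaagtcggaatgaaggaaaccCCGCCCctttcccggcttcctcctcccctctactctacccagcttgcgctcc
SRSF3: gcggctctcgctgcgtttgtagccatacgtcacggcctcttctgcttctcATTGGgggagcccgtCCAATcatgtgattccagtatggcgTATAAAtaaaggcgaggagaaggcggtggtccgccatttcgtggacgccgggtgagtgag
LSM4: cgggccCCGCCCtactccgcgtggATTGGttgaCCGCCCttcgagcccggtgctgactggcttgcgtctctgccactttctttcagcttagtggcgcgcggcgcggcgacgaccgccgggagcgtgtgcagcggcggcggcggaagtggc
SNRPD2: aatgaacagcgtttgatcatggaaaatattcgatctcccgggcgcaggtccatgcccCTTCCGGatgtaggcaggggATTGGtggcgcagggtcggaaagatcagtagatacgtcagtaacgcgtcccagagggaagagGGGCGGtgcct
U2AF2: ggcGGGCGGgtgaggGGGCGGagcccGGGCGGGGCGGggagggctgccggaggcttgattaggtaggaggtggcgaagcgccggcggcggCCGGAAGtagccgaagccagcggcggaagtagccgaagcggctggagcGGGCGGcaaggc
Of these 6 windows, SRSF3 alone held the TATA core, between a pair of CCAAT boxes and the start. PRPF4 and LSM2 held a lone GC box each, SNRPD2 and U2AF2 an ETS core each, and U2AF2 had the most GC boxes. SNRPD2 has 3 RefSeq windows, and those not shown held none of the motifs searched for.

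Over the whole set, 48 of the 58 genes had a RefSeq window of 250 bases before to 50 after the start. The ETS core CCGGAAG stood in the window of 20 of them (41.7%), against 10.3% of all 35116 windows and 20.5% of the 11471 tested genes with a window. A GC box was found in 28 (58.3%), against 45% of all windows and 75.8% of tested genes, and the TATA core in 4 (8.33%), against 11.5% and 8.65%. The ETS core stood in 7 of 19 windows of genes that rose in both lines on the TMM scale and in 3 of 9 of those that fell in both. The YY1 core AAGATGGCG stood in 4 members' windows (8.33%), against 1.75% of all windows and 4.21% of tested genes, and the E-box CACGTG in 1 (2.08%), against 7.26% and 12.3%. Matches are letters in a window and were tested for nothing.

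Among the PRPF factors, PRPF3 and PRPF4 fell in both lines, and PRPF8, PRPF31, PRPF39, PRPF40B and PRPF4B rose on the TMM scale. PRPF4, which with PRPF3 holds the paired U4 and U6 snRNAs, had the largest fall of all 58 genes in both lines (chr9:113275343-113292905, 14 exons in the transcript used). Its level was 14.6, 12.8 and 13 CPM with THZ1, against 92.7, 97.9 and 97.9 CPM with DMSO, in WERI. In Y79 it was 5.08, 4.41 and 5.99 CPM with THZ1, against 78.2, 79.9 and 83 CPM with DMSO. The groups lay far apart in both lines, and the log2 fold changes were -2.83 ± 0.094 (adjusted p = 8.89e-11) in WERI and -3.96 ± 0.1 (adjusted p = 8.16e-12) in Y79. PRPF4 shares 5.8% of its exon bases with CDC26 on the opposite strand, and the library kit keeps no strand. PRPF3 fell by less, at -0.45 ± 0.13 in WERI and -0.96 ± 0.14 in Y79. PRPF18, a factor of the second step, and PRPF38B, a relative of a tri-snRNP protein, fell in both lines as well, at -0.40 and -0.33 in WERI and -0.88 and -1.29 in Y79; PRPF18 shares 42% of its exon bases with the gene model AL157392.5 on the same strand.

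PRPF8 and PRPF31 moved the other way on the TMM scale. PRPF8, the large U5 protein at the catalytic centre, stood at 889.6, 839 and 835 CPM with THZ1, against 555, 561 and 537 CPM with DMSO, in WERI. In Y79 it stood at 924, 680.5 and 955 CPM with THZ1, against 703, 665 and 708 CPM with DMSO. Replicate 2 of Y79 with THZ1 lay within the DMSO range there, and the other treated cultures above it. The changes were 0.63 ± 0.1 (adjusted p = 0.000124) in WERI and 0.30 ± 0.1 (adjusted p = 0.0218) in Y79, where the call was lost on leaving out any of 4 libraries and the log2 fold change without that replicate 2 was 0.41. PRPF31, which joins U4/U6 to U5, had 74.4, 66.8 and 73.7 CPM with THZ1, against 45.5, 51.2 and 51.4 CPM with DMSO, in WERI. In Y79 the values were 118, 176 and 121 CPM with THZ1, against 89.2, 83.6 and 91 CPM with DMSO. No library overlapped between groups in either line, and the changes were 0.54 ± 0.13 (adjusted p = 0.00206) and 0.65 ± 0.12 (adjusted p = 0.000387), with 0.41 in Y79 without replicate 2. It shares 22% of its exon bases with an antisense transcript that the count table does not list.

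PRPF39 and PRPF40B, human relatives of yeast U1 snRNP factors, had the largest rises of the class in WERI on the TMM scale, and PRPF39 also in Y79. PRPF39 was at 113, 123 and 113 CPM with THZ1, against 50.9, 50.2 and 53.2 CPM with DMSO, in WERI, and at 131, 148 and 129.9 CPM with THZ1, against 62.2, 72.8 and 59 CPM with DMSO, in Y79. That is a log2 fold change of 1.18 ± 0.085 (adjusted p = 4.14e-08) in WERI and 1.07 ± 0.085 (adjusted p = 7.1e-08) in Y79, with no overlap of groups. PRPF39 shares 13.2% of its exon bases with FKBP3 on the opposite strand, and FKBP3 had more counts (48339) than PRPF39 (34588). PRPF40B was at 17.6, 20.1 and 17.7 CPM with THZ1, against 7.67, 7.06 and 7.98 CPM with DMSO, in WERI, and at 19.5, 20.6 and 19.8 CPM with THZ1, against 10.5, 11.6 and 11.8 CPM with DMSO, in Y79. Its changes were 1.29 ± 0.1 (adjusted p = 1.06e-07) and 0.82 ± 0.1 (adjusted p = 6.65e-06), but 28% of its exon bases are shared with FMNL3 and 20.7% with FAM186B on the opposite strand, and FMNL3 had more counts than PRPF40B. PRPF4B, a kinase of the tri-snRNP, rose in both lines on that scale, while PRPF6, PRPF19 and PRPF38A were not called in either, with changes from -0.15 to 0.13. Without replicate 2 of Y79 with THZ1, PRPF6 was called lower in both lines and PRPF19 lower in Y79. Under mitochondrial scaling all 13 PRPF mRNAs were lower in both lines.

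Of the SF3 subunits, SF3A2 and SF3B2 rose on the TMM scale and SF3B3 and SF3B4 fell in both lines. These proteins sit in 1 particle on the branch point. SF3A2, an SF3a subunit with a zinc finger, was at 169, 149.8 and 158 CPM with THZ1, against 67.9, 80.8 and 78.3 CPM with DMSO, in WERI. In Y79 its level was 361, 339 and 400.0 CPM with THZ1, against 135, 119 and 138 CPM with DMSO. The groups did not overlap, and the changes were 1.07 ± 0.091 (adjusted p = 1.85e-07) and 1.49 ± 0.091 (adjusted p = 5.6e-09); 12.7% of its exon bases are shared with PLEKHJ1. SF3B3, a scaffold subunit of SF3b, was at 117, 112 and 112 CPM with THZ1, against 207, 207 and 197 CPM with DMSO, in WERI. Y79 cultures had 145, 130.4 and 145 CPM with THZ1, against 317, 308 and 301 CPM with DMSO. Its fall was -0.85 ± 0.064 (adjusted p = 5.88e-08) in WERI and -1.14 ± 0.064 (adjusted p = 2.63e-09) in Y79, again with no overlap. SF3B2 rose by 1.03 in WERI and 1.05 in Y79 on the TMM scale, or 0.88 in Y79 without replicate 2, and SF3B4 changed by -0.69 and -1.05.

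SF3B1, the largest SF3b subunit and the one that clasps the branch helix, was not called in WERI and fell in Y79. It stood at 369, 376 and 369.6 CPM with THZ1, against 388, 385 and 379 CPM with DMSO, in WERI, and at 402, 369 and 411 CPM with THZ1, against 503, 502 and 490.1 CPM with DMSO, in Y79. The change in WERI was -0.048 ± 0.062 (adjusted p = 0.537), though the highest treated value lay just below the lowest control. In Y79 it fell, at -0.34 ± 0.063 (adjusted p = 0.00029). SF3A1 was called in Y79 alone, at 0.19 on the TMM scale, where the call was lost without any of 3 libraries and the log2 fold change turned to -0.37 with total counts as the scale. SF3B6, which touches the branch adenosine, was called higher in both lines, at 0.55 and 0.48, but its level in Y79 with THZ1 was 101, 181 and 94.6 CPM, and without the high replicate 2 the change there was 0.09 and not called. SF3A3 and SF3B5 were not called in either line. Without replicate 2 of Y79 with THZ1, SF3A3 and SF3B5 were called lower in Y79, and SF3A1 and SF3B5 were called lower in WERI.

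Partners of the Sm ring moved differently. Of the Sm proteins, SNRPD2 rose most on the TMM scale, with 209.5, 176 and 211 CPM with THZ1, against 60.5, 73.4 and 70.4 CPM with DMSO, in WERI. In Y79 the values were 398, 694 and 430.1 CPM with THZ1, against 143, 134 and 153 CPM with DMSO. The highest of these was replicate 2, and the groups did not overlap. The changes were 1.55 ± 0.17 (adjusted p = 5.09e-06) in WERI and 1.82 ± 0.18 (adjusted p = 8.7e-07) in Y79, or 1.5 in Y79 without replicate 2. SNRPD1, which pairs with SNRPD2 in the ring, was at 74.7, 76.6 and 84.2 CPM with THZ1, against 83.7, 83.8 and 78.6 CPM with DMSO, in WERI, where the groups overlapped and the change was -0.063 ± 0.11 (adjusted p = 0.641). The Y79 values were 122, 159 and 109.8 CPM with THZ1, against 233, 238 and 230.3 CPM with DMSO, a fall of -0.85 ± 0.11 (adjusted p = 8.65e-06), or -1.04 without replicate 2. SNRPB and SNRPD3 rose in both lines on the TMM scale, at 0.72 and 0.58 in WERI and 0.89 and 0.50 in Y79, and without replicate 2 SNRPB in Y79 was at 0.55 and SNRPD3 at 0.34. SNRPN, the imprinted relative of SNRPB made in neurons, rose by 1.40 and 1.67 on the same scale, or 1.42 in Y79 without replicate 2; it shares 23.8% of its exon bases with SNURF on the same strand. SNRPE was called higher in WERI alone, at 0.39, a call lost on leaving out any of the 6 WERI libraries. SNRPF was called in neither line, and SNRPG fell in Y79, at -0.53, or -0.68 without replicate 2.

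Of the 4 proteins of U1 or U2 alone, SNRPA fell in both lines and SNRPA1 and SNRPB2 in Y79. SNRPA, the U1 protein that binds a loop of the U1 snRNA, was at 25.7, 22.8 and 23.8 CPM with THZ1, against 58.6, 64.4 and 53.9 CPM with DMSO, in WERI. In Y79 it was at 58.9, 82.2 and 54.7 CPM with THZ1, against 101, 98.1 and 98.2 CPM with DMSO. All treated cultures lay below all controls, and the changes were -1.29 ± 0.13 (adjusted p = 8.82e-07) in WERI and -0.61 ± 0.12 (adjusted p = 0.000655) in Y79, or -0.83 in Y79 without replicate 2. SNRPA1, a U2 protein, was at 33.4, 39 and 31.3 CPM with THZ1, against 38.4, 38.7 and 39.8 CPM with DMSO, in WERI, where the groups overlapped and the change was -0.17 ± 0.14 (adjusted p = 0.312). In Y79 its level was 20.6, 32.9 and 22.2 CPM with THZ1, against 56.5, 58.6 and 53.8 CPM with DMSO, with a fall of -1.16 ± 0.14 (adjusted p = 6.03e-06), or -1.43 without replicate 2. SNRPB2, its partner on U2, changed by -0.023 in WERI, not called, and fell by 0.57 in Y79, or by 0.80 without replicate 2. SNRPC, another U1 protein, was called higher in Y79 alone on the TMM scale, at 0.52, or 0.24 without replicate 2, and was at -0.07 there with total counts as the scale. Without that replicate SNRPC was also called higher in WERI on the TMM scale, and SNRPA1 was called lower in WERI.

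The 2 subunits of U2AF moved apart. U2AF2, the large subunit that reads the polypyrimidine tract, rose in both lines on the TMM scale. It was at 436, 403 and 435 CPM with THZ1, against 206, 213 and 221 CPM with DMSO, in WERI, and at 519, 611 and 569.7 CPM with THZ1, against 263, 252 and 279 CPM with DMSO, in Y79. The changes were 0.99 ± 0.076 (adjusted p = 6.88e-08) and 1.1 ± 0.076 (adjusted p = 1.89e-08), with no overlap. U2AF1, the small subunit that reads the AG at the intron's end, is annotated at chr21:43092956-43107587, and a near-identical copy, U2AF1L5, at chr21:6484623-6499261. Of the 50-base stretches of U2AF1L5 transcripts 94.3% also occur in those of U2AF1, so the split of reads between them is uncertain and their sum is the safer value. U2AF1 alone was at 49.1, 23.6 and 48.6 CPM with THZ1, against 86.4, 107 and 78.4 CPM with DMSO, in WERI, and at 38.9, 64 and 35.1 CPM with THZ1, against 103, 131 and 113 CPM with DMSO, in Y79. U2AF1L5 alone was at 44, 62.7 and 49 CPM with THZ1, against 76.4, 76 and 95.1 CPM with DMSO, in WERI, and at 27.8, 37.6 and 31.1 CPM with THZ1, against 147, 112 and 140.1 CPM with DMSO, in Y79. U2AF1 changed by -1.16 ± 0.29 (adjusted p = 0.00553) in WERI and -1.33 ± 0.29 (adjusted p = 0.00233) in Y79, and U2AF1L5 by -0.67 ± 0.15 (adjusted p = 0.00161) and -2.05 ± 0.16 (adjusted p = 6.78e-08). Without replicate 2 of Y79 with THZ1 the Y79 values were -1.67 for U2AF1 and -2.21 for U2AF1L5. In WERI with THZ1 the replicate with the lowest U2AF1 had the highest U2AF1L5. Their sum was at 93.1, 86.3 and 97.5 CPM with THZ1, against 163, 183 and 174 CPM with DMSO, in WERI, and at 66.8, 102 and 66.1 CPM with THZ1, against 249.8, 243 and 253 CPM with DMSO, in Y79, with replicate 2 the highest in Y79 with THZ1 and no overlap of groups. Summed, they fell by 0.91 in WERI (adjusted p = 3.46e-05) and by 1.67 in Y79 (adjusted p = 8.3e-08) on the log2 scale, and without replicate 2 by 1.93 in Y79 (adjusted p = 6.49e-14). U2AF1L4, a minor relative at 0.626 to 12.5 CPM, was called higher in both lines on the TMM scale, and 24.8% of its exon bases are shared with AD000671.2. Its call in Y79, at 26 to 73 counts a library, was lost on leaving out any of 3 libraries.

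**Figure D2:**
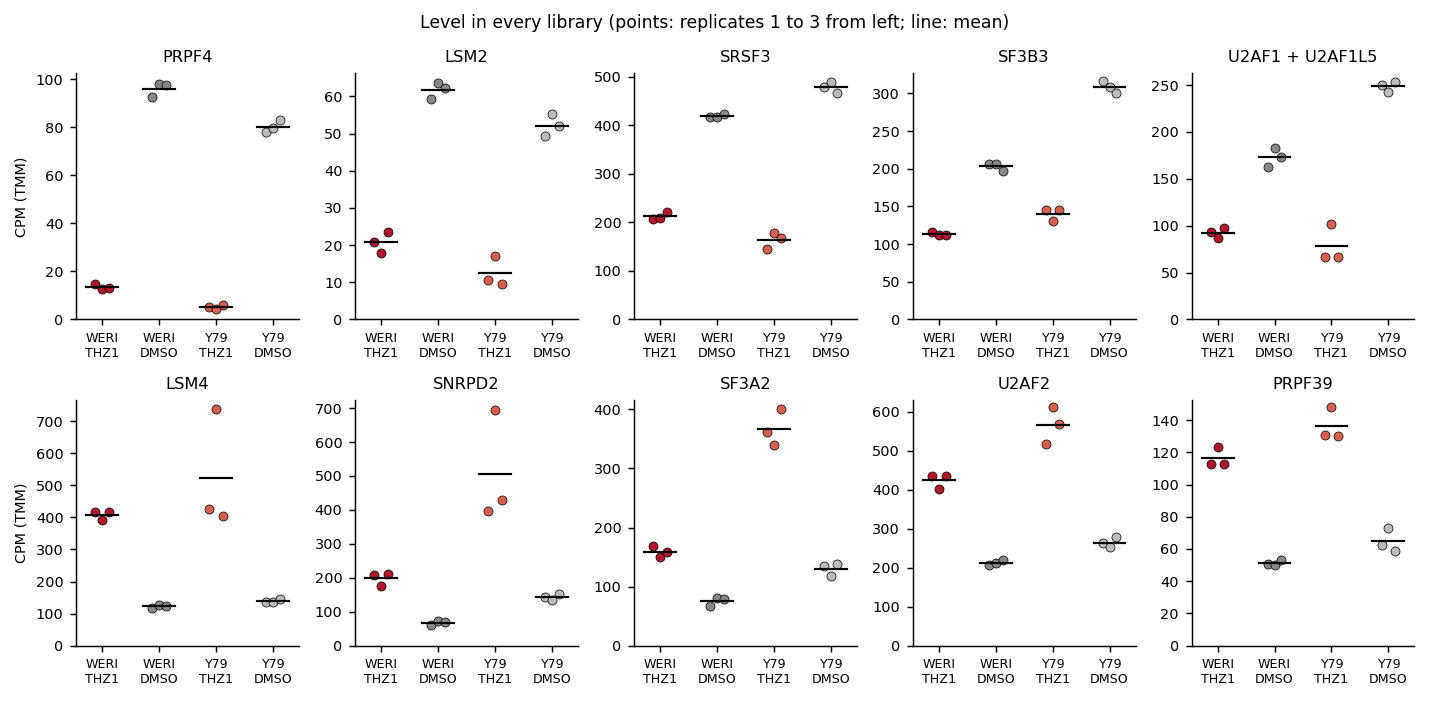
CPM (TMM scale, vertical axes from 0) of 9 genes and of the sum of U2AF1 and U2AF1L5 in each of the 12 libraries, by group along the horizontal axis, with a line at each group's mean. The upper row shows genes that fell in both lines and the lower row genes that rose on the TMM scale, which all fall or lose their call under mitochondrial scaling; replicate 2 of Y79 with THZ1 is the high point of LSM4 and SNRPD2.

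The SR proteins were the class with the highest share of rises in WERI, 9 of 12 (75%, background 27.7%) on the TMM scale, against 4 of 12 with total counts as the scale (all genes 14.9%) and 0 with mitochondrial scaling (all genes 0.747%). In Y79 5 of 12 rose on the TMM scale (41.7%, background 29.9%), against 0 on both other scales, where 14.6% of all genes rose with total counts and 1.9% with mitochondrial scaling. SRSF3, a small SR protein that also acts in mRNA export, fell in both lines (chr6:36594353-36605600). Its level was 206, 209.7 and 220.2 CPM with THZ1, against 417, 417 and 422 CPM with DMSO, in WERI. In Y79 it was 146, 177 and 168 CPM with THZ1, against 478, 489.6 and 467 CPM with DMSO. The groups were far apart, at -0.98 ± 0.074 (adjusted p = 6.35e-08) in WERI and -1.55 ± 0.076 (adjusted p = 7.56e-10) in Y79. SRSF4 was the only other SR mRNA to fall in both lines, at -0.36 and -0.32.

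SRSF2 led the rises in WERI and SRSF9 those in Y79, on the TMM scale. SRSF2, an SR protein that binds exonic enhancers and also acts in transcription elongation, was at 654, 657 and 669 CPM with THZ1, against 346, 358 and 347 CPM with DMSO, in WERI. Y79 cultures had 432, 537 and 419 CPM with THZ1, against 368, 412 and 418 CPM with DMSO. It rose in WERI on the TMM scale, at 0.91 ± 0.091 (adjusted p = 9.18e-07), and was not called in Y79, at 0.21 ± 0.09 (adjusted p = 0.0543), where it turned to -0.36 with total counts as the scale. MFSD11 on the opposite strand shares 36.7% of its exon bases. SRSF9 was at 118, 107 and 129.8 CPM with THZ1, against 61.5, 65 and 64.8 CPM with DMSO, in WERI, and at 103, 155 and 104 CPM with THZ1, against 79, 83.4 and 89.2 CPM with DMSO, in Y79. The changes were 0.89 ± 0.13 (adjusted p = 4.99e-05) and 0.52 ± 0.13 (adjusted p = 0.00331), or 0.27 in Y79 without replicate 2, and GATC shares 46.2% of its exon bases. SRSF5, SRSF6, SRSF10 and SRSF11 rose in both lines on the TMM scale, by 0.35 to 0.76 in WERI and 0.23 to 0.44 in Y79, where SRSF5 was at 0.27 without replicate 2.

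SRSF1, the founding SR protein and a known oncoprotein, changed little in WERI and fell in Y79. It was at 599.8, 593 and 625 CPM with THZ1, against 552, 532 and 533 CPM with DMSO, in WERI. The Y79 values were 439, 443 and 468 CPM with THZ1, against 683, 680.4 and 682 CPM with DMSO. In WERI the groups did not overlap, but the rise of 0.17 ± 0.062 (adjusted p = 0.0297) was lost on leaving out any of 9 libraries and turned to -0.28 with total counts as the scale. In Y79 all treated cultures lay well below the controls, at -0.60 ± 0.062 (adjusted p = 1.12e-06). SRSF1 shares 56.6% of its exon bases with the gene model AC015813.2 on the same strand. SRSF7 and SRSF8 are given because of their values. SRSF7 was at 289.9, 292 and 309.5 CPM with THZ1, against 180.3, 188 and 177 CPM with DMSO, in WERI, and at 215, 294 and 229 CPM with THZ1, against 282, 276 and 285 CPM with DMSO, in Y79. Its rise in WERI was 0.71 ± 0.097 (adjusted p = 1.98e-05) on the TMM scale, and its change in Y79 was -0.19 ± 0.097 (adjusted p = 0.095), or -0.37 and called without replicate 2. SRSF8 was at 55.9, 57.2 and 59 CPM with THZ1, against 40.3, 40.7 and 39.5 CPM with DMSO, in WERI. In Y79 it was at 47.7, 56.2 and 46.8 CPM with THZ1, against 61.7, 67.8 and 70.7 CPM with DMSO. It changed by 0.51 ± 0.081 (adjusted p = 7.46e-05) in WERI and -0.41 ± 0.081 (adjusted p = 0.000488) in Y79 on the TMM scale. SRSF12, the least expressed SR mRNA, was not called in either line.

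In the Lsm family LSM4 and LSM7 rose on the TMM scale, LSM1, LSM2 and LSM6 fell, and LSM3, LSM5 and LSM8 were not called, in both lines alike. Without replicate 2 of Y79 with THZ1, LSM3 and LSM5 were called higher in WERI on the TMM scale and LSM8 lower in Y79. LSM8 gained that call on leaving out any of 5 libraries. LSM4 was at 417, 392 and 415 CPM with THZ1, against 117, 127 and 123 CPM with DMSO, in WERI. In Y79 it was at 427, 736 and 404 CPM with THZ1, against 135, 136 and 144 CPM with DMSO. Treated and control cultures did not overlap, and the changes were 1.73 ± 0.17 (adjusted p = 1.61e-06) in WERI and 1.91 ± 0.18 (adjusted p = 5.16e-07) in Y79, or 1.55 in Y79 without the high replicate 2. LSM7 changed by 1.24 and 1.87, or 1.47 in Y79 without it. LSM2 was at 20.8, 17.9 and 23.5 CPM with THZ1, against 59.3, 63.5 and 62.2 CPM with DMSO, in WERI. In Y79 its level was 10.5, 17 and 9.6 CPM with THZ1, against 49.2, 55.2 and 52 CPM with DMSO. It fell in both lines with no overlap, at -1.57 ± 0.16 (adjusted p = 1.59e-06) in WERI and -2.08 ± 0.17 (adjusted p = 1.12e-07) in Y79, or -2.40 without replicate 2. LSM1 fell by 0.93 in WERI and 1.88 in Y79, and LSM6 by 0.89 and 1.57, on the log2 scale. LSM1 replaces LSM8 in the cytoplasmic ring that binds mRNAs due for decay, whereas the ring with LSM8 binds U6; 26.7% of the exon bases of LSM1 are shared with an antisense transcript and 11.7% with BAG4.

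Ratios between partners within a library do not depend on the scale. They were taken as counts per kb of merged exons, for pairs chosen with the results known, and carry no test. The level of a ratio depends on these lengths, so only its change between groups can be read. The merged exons of U2AF1, for example, span 11.1 kb, against 962 bases in the transcript used. LSM4 over LSM2 was 7.13, 7.77 and 6.28 with THZ1, against 0.705, 0.713 and 0.703 with DMSO, in WERI. In Y79 it was 14.5, 15.4 and 15 with THZ1, against 0.977, 0.877 and 0.985 with DMSO. The mean ratio was 9.95-fold higher with THZ1 in WERI and 15.8-fold higher in Y79, and replicate 2 of Y79 with THZ1 lay within 1 unit of its partners for this ratio.
U2AF2 over the sum of U2AF1 and U2AF1L5 was 12.6, 12.6 and 12 with THZ1, against 3.41, 3.14 and 3.44 with DMSO, in WERI, and 21, 16.3 and 23.3 with THZ1, against 2.84, 2.81 and 2.97 with DMSO, in Y79. PRPF4 over PRPF3 was 0.345, 0.231 and 0.256 with THZ1, against 1.34, 1.43 and 1.48 with DMSO, in WERI, and 0.151, 0.0845 and 0.162 with THZ1, against 1.01, 0.975 and 1.05 with DMSO, in Y79. These are 3.74-fold and 6.94-fold higher ratios for U2AF and 5.19-fold and 7.93-fold lower ones for PRPF4, with no overlap.
SNRPD1 over SNRPD2 averaged 0.13 ± 0.013 with THZ1 and 0.398 ± 0.048 with DMSO in WERI, and 0.0863 ± 0.013 with THZ1 and 0.537 ± 0.046 with DMSO in Y79 (SD, n = 3 each). LSM1 over LSM8 averaged 1.17 ± 0.2 with THZ1 and 2.25 ± 0.12 with DMSO in WERI, and 0.784 ± 0.074 with THZ1 and 2.51 ± 0.21 with DMSO in Y79 (SD, n = 3 each). SNRPB over SNRPD3 moved less, though without overlap of groups. It averaged 4.24 ± 0.13 with THZ1 and 3.84 ± 0.14 with DMSO in WERI, and 5.71 ± 1 with THZ1 and 4.43 ± 0.22 with DMSO in Y79 (SD, n = 3 each). SNRPA1 over SNRPB2 overlapped between the groups in WERI and was 1.51-fold lower with THZ1 in Y79.

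**Figure D3:**
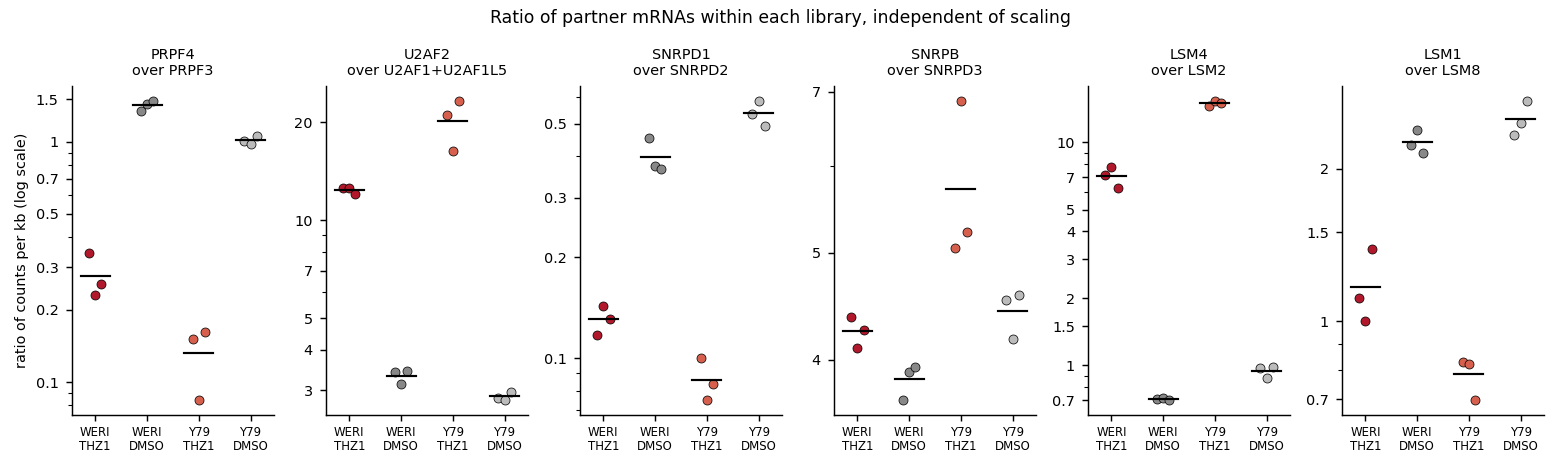
Ratio of counts per kb of 6 pairs of partner mRNAs (vertical axes, log scale, each with its own range) in the 12 libraries, by group along the horizontal axis, with a line at the group mean. LSM4 over LSM2 and U2AF2 over the U2AF1 pair are higher in all THZ1 libraries, PRPF4 over PRPF3, SNRPD1 over SNRPD2 and LSM1 over LSM8 are lower, and SNRPB over SNRPD3 moves by 1.1-fold in WERI and 1.28-fold in Y79.

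As a share of all counts, the 58 genes took 0.841, 0.857 and 0.85% in WERI with THZ1, against 0.895, 0.909 and 0.905% with DMSO. In Y79 they took 0.797, 0.852 and 0.826% with THZ1, against 1.05% in each library with DMSO. The share was lower in every treated library of both lines, and the SR proteins, the most abundant class, showed the widest gap in Y79, with 0.217, 0.222 and 0.225% with THZ1, against 0.348, 0.36 and 0.354% with DMSO. The LSM class went the other way, with 0.0603, 0.0579 and 0.0595% in WERI with THZ1, against 0.0413, 0.0447 and 0.0448% with DMSO. In Y79 it took 0.0588, 0.0881 and 0.0573% with THZ1, against 0.0468, 0.0479 and 0.0481% with DMSO. LSM4 is its most abundant member, and 0.0881% is replicate 2. On the TMM scale the sum of all 58 was instead higher in every treated library. In WERI it was 9172, 9078 and 9322 CPM with THZ1, against 7123, 7262 and 7107 CPM with DMSO. In Y79 it was 10090, 12250 and 10300 CPM with THZ1, against 9311, 9286 and 9334 CPM with DMSO. The SR sum in Y79 overlapped on that scale, at 2741, 3198 and 2805 CPM with THZ1, against 3098, 3178 and 3145 CPM with DMSO. Per kb of merged exons, SRSF1 and SNRPB were the highest of the 58 in Y79 with DMSO, at 204 and 195 CPM per kb. U2AF1L4 and PRPF40B were the lowest, at 0.408 and 1.2 CPM per kb. This order also depends on the merged exon lengths.

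**Figure D4:**
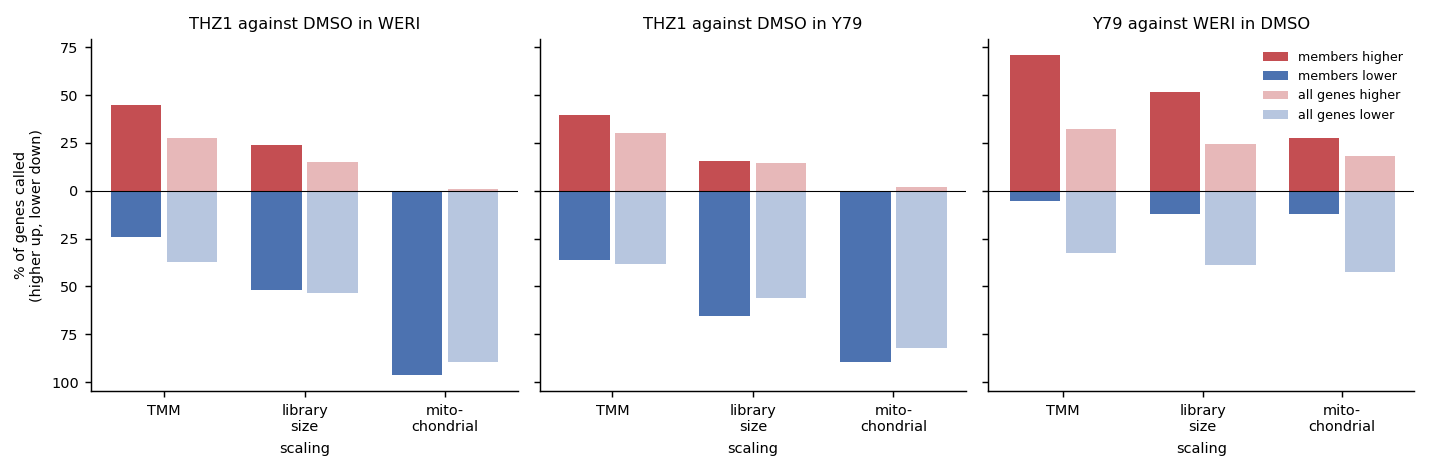
Percent of genes called higher (bars upward) and lower (bars downward) among the 58 genes (full colour) and among all 14865 tested Ensembl genes (pale), under TMM, total-count and mitochondrial scaling, for both THZ1 comparisons and for Y79 against WERI in DMSO. Rises with THZ1 shrink to 0 of 58 under mitochondrial scaling in both lines, while between the lines in DMSO 41, 30 and 16 members are higher in Y79 under the 3 scalings.

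Where the response to THZ1 differed between the lines, it was mostly lower in Y79. The difference of the changes, Y79 minus WERI, was called in 22 of 58 genes, 4 higher (6.9%) and 18 lower (31%), against 8.74% and 13.2% of all genes, and its median was -0.19, against -0.01 over all genes. At least 2-fold, 2 were lower (3.45%, background 2.41%) and 0 higher (background 1.91%). With total counts as the scale 1 was higher and 25 lower, against 4.98% and 18.1% of all genes. With mitochondrial scaling 4 were higher and 10 lower, against 12% and 4.8%. Without replicate 2 of Y79 with THZ1 4 were higher and 30 lower, against 14.3% and 20% of all genes, and the median was -0.28, against -0.039. Of the SR proteins, 6 of 12 were lower (50%) and none higher: SRSF8 at -0.92 ± 0.11, SRSF7 at -0.90 ± 0.14, SRSF1 at -0.77 ± 0.088, SRSF2 at -0.70 ± 0.13, SRSF3 at -0.56 ± 0.1 and SRSF10 at -0.34 ± 0.091. All 6 were negative under every scaling tried, and SRSF3 and SRSF10 lost their call under mitochondrial scaling.

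Beyond the SR proteins, U2AF1L5 (-1.38 ± 0.21), PRPF4 (-1.12 ± 0.13) and SNRPA1 (-0.99 ± 0.2) had the most negative differences. For the sum of U2AF1 and U2AF1L5 it was -0.76 (adjusted p = 0.0111), or -0.996 (adjusted p = 1.65e-07) without replicate 2 of Y79 with THZ1. Without that library SRSF7 was at -1.05, SRSF2 at -0.82, U2AF1L5 at -1.51, SNRPA1 at -1.22, SNRPD1 at -0.95 and SNRPA at 0.49. PRPF38B, LSM1, SNRPD1, SNRPG and LSM6 followed, at -0.96 to -0.62. The positive differences were SNRPA at 0.68 ± 0.18, PRPF4B at 0.45 ± 0.12, SF3A2 at 0.42 ± 0.13 and SF3A1 at 0.34 ± 0.09. PRPF4B was at 242, 288 and 254 CPM with THZ1, against 204, 188 and 196 CPM with DMSO, in WERI, and at 490.0, 427 and 535 CPM with THZ1, against 262, 275 and 262 CPM with DMSO, in Y79, so its treated values in Y79 lay far above the controls. With total counts as the scale only SNRPA kept its positive call. Calls of SF3B1, SF3B3 and PRPF40B were lost on leaving out any of 9 libraries, and those of SF3A2, PRPF4B, SF3B4 and LSM6 on leaving out any of 5 to 7.

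**Figure D5:**
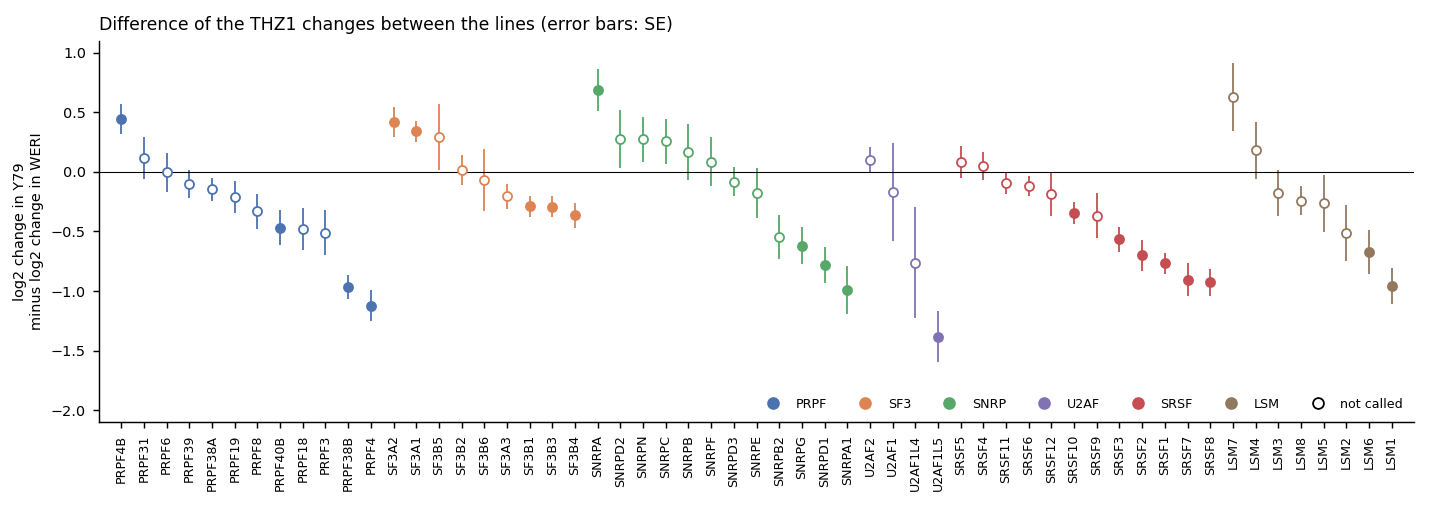
Difference of the log2 changes with THZ1, Y79 minus WERI (vertical axis, with SE), for the genes reported by name, by class (horizontal axis), with filled points for called genes. The 6 called SR proteins lie between -0.92 and -0.34, and 4 genes, SNRPA, PRPF4B, SF3A2 and SF3A1, are called above 0.

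In DMSO most splicing mRNAs were higher in Y79 than in WERI on the TMM scale, though with mitochondrial scaling most were not called. Of the 58, 41 were higher in Y79 (70.7%) and 3 lower (5.17%), against 32.3% and 32.6% of all genes, with a median of 0.40, against 0.00, and 64.9% of all genes called either way. At least 2-fold, 3 were higher (5.17%, background 10.6%) and 1 lower (1.72%, background 18.3%). All Y79 cultures lay above all WERI cultures for 49 and below for 7, against 38.9% and 39% of all genes. With total counts as the scale 30 were higher and 7 lower, against 24.5% and 38.6% of all genes, and with mitochondrial scaling 16 and 7, against 18.2% and 42.5%. SNRPD1 led, with 233, 238 and 230.3 CPM in Y79, against 83.7, 83.8 and 78.6 CPM in WERI, a log2 fold change of 1.51 ± 0.11 (adjusted p = 3.55e-08). SNRPD2 had 143, 134 and 153 CPM in Y79, against 60.5, 73.4 and 70.4 CPM in WERI, at 1.07 ± 0.17 (adjusted p = 0.000136). SF3B5, a small SF3b subunit, had 64.5, 63.4 and 60.6 CPM in Y79, against 27.2, 32.2 and 31.8 CPM in WERI, at 1.05 ± 0.2 (adjusted p = 0.000435). None of these overlapped between the lines, and all 3 stayed positive under every scaling. On the low side were SRSF12, with 14.6, 14.9 and 11.8 CPM in Y79, against 21.9, 20.9 and 21.8 CPM in WERI, at -0.65 ± 0.13 (adjusted p = 0.000728), and PRPF4, with 78.2, 79.9 and 83 CPM in Y79, against 92.7, 97.9 and 97.9 CPM in WERI, at -0.26 ± 0.085 (adjusted p = 0.0175), a call lost without any of 4 libraries. U2AF1L4, at -1.44, was the third, at 0.626 to 1.74 CPM in Y79 with DMSO. By class, 10 of 12 SNRP, 9 of 13 PRPF, 8 of 12 SRSF, 7 of 9 SF3, 5 of 8 LSM and 2 of 4 U2AF mRNAs were higher in Y79 on the TMM scale. The DMSO cultures of this comparison are also the controls of the THZ1 comparisons.

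Of 55 other snRNP and spliceosome core genes, 14 rose and 32 fell (58.2%) in WERI and 11 rose and 36 fell (65.5%) in Y79, with medians of -0.37 and -0.54 on the TMM scale. Of all genes 27.7% rose and 37.2% fell in WERI and 29.9% and 38.5% in Y79, with medians of -0.11 and -0.09, and the lists below are to be set beside the same shares. HTATSF1, a U2-associated factor, rose most on that scale, by 1.39 and 1.45. GPATCH1 changed by -1.62 and -1.46, and PHF5A, the small SF3b subunit beside SF3B1, by -1.46 in WERI and -2.49 in Y79. Of 18 genes of the SMN complex and snRNP assembly, which load Sm rings on snRNAs, 4 rose and 12 fell in each line (22.2% and 66.7%). DDX20, a helicase of that complex, changed by -2.63 and -3.12, and CLNS1A, the chaperone of Sm proteins, by 1.09 and 0.81 on the TMM scale. Of 11 tested genes of the minor spliceosome and the U7 snRNP, 2 rose and 7 fell in each line, with LSM10, an Lsm protein of U7, at -2.66 and -2.92 and CENATAC at 1.26 and 1.57 on the TMM scale. These lists too were drawn up with results of the data known.

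Transcripts of the 21 that rose in both lines on the TMM scale had a median GC content of 52.7% and a median of 9 exons, those of the 14 that fell in both 48.5% and 6 exons. Over all genes the medians were 54.7% and 9 exons for rises and 47.9% and 9 exons for falls. Median gene spans were 17.1 and 14.7 kb among members, against 21.5 and 36.1 kb over all genes. Across the 58 genes, which share their libraries, Spearman's rho between span and change was -0.08 in WERI and 0.07 in Y79, and between GC content and change 0.20 and 0.30 (over all genes, 0.14 and 0.18). Of 8 members on chromosome 19, 7 rose on the TMM scale and 1, SNRPA, fell in both lines, where 33.2% of all chromosome 19 genes rose and 33.3% fell in WERI and 39.7% and 30.9% in Y79. None of these features was tested.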

How the data were processed

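Total RNA of 12 cultures in 4 groups of 3 was sequenced, per the labels with a NEBNext Ultra RNA kit, which keeps no strand. The deposited values are whole-number counts per gene, not normalized as far as the values show. The submitters' processing notes name Cufflinks and GRCh38, while for versions, aligner and counting the sources used here give nothing. Testing used edgeR 4.0.16 under R 4.3.3: filterByExpr (minimum count 10), TMM factors, and glmQLFit (robust) with glmQLFTest on all 12 libraries with a mean per group and no replicate block. Two-sided p-values were adjusted within each contrast for all 18844 features (Benjamini-Hochberg), which include unannotated loci, whereas printed background shares cover 14865 Ensembl genes. The model was tested on simulated data. SE is the absolute log2 fold change over the square root of F. P-values measure the spread between the cultures of these groups.

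Alternatives were RLE, total-count and mitochondrial scaling (by 13 mitochondrial mRNAs), no filter and a stricter one (1 CPM in 3 libraries), DESeq2 1.42.0, a fit of the compared groups alone, a replicate block and leaving out each library. Same-numbered libraries did not deviate together. Gene models, exon overlaps and GC content are from GENCODE v29 and promoter windows from RefSeq on GRCh38.p14, read with Python 3.11.15 and pandas 2.3.3. Intervals of counting error are not given, since replicate spread was used.

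The 58 members and all lists were chosen with earlier results of these data known, so no list was tested as a whole. SF3B1, U2AF1, U2AF2, SRSF1, PRPF8 and PRPF31 are given in full, as are the called members with the largest rise and fall per class and line, the 3 highest and 3 lowest differences, and the 3 highest and 3 lowest between lines, at an average log2 CPM of at least 3, which only 2 low genes between the lines reached. SRSF7, SRSF8 and other members given in full outside this rule were chosen after their values were seen. One member is counted with its class but not reported by name here. In the other lists the called gene with the largest rise or fall is named. Each library held 29677575 counts or more.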

Additional observations from a re-analysis of the deposited data

Results flagged for a closer look

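For 22 members the edgeR test of the difference itself found that the log2 change with THZ1 in Y79 minus that in WERI departed from 0, where 22% of all genes did. Below 0 were, of the SR proteins, SRSF8 -0.92 (adjusted p = 0.000153), SRSF7 -0.90 (adjusted p = 0.000565), SRSF1 -0.77 (adjusted p = 8.77e-05), SRSF2 -0.70 (adjusted p = 0.00203), SRSF3 -0.56 (adjusted p = 0.00226) and SRSF10 -0.34 (adjusted p = 0.018). In 5 of these, SRSF1, SRSF2, SRSF7, SRSF8 and SRSF10, the change in WERI was positive on the TMM scale and that in Y79 lower or negative, while with mitochondrial scaling both changes were negative. Of the other classes, PRPF factors were PRPF4 -1.12 (adjusted p = 0.000114), PRPF38B -0.96 (adjusted p = 4.83e-05) and PRPF40B -0.47 (adjusted p = 0.0366), and Sm or snRNP proteins SNRPA1 -0.99 (adjusted p = 0.00382), SNRPD1 -0.78 (adjusted p = 0.0031) and SNRPG -0.62 (adjusted p = 0.0128). The Lsm proteins were LSM1 -0.96 (adjusted p = 0.000787) and LSM6 -0.67 (adjusted p = 0.0209), U2AF1L5 stood at -1.38 (adjusted p = 0.000758), and SF3b subunits were SF3B4 -0.37 (adjusted p = 0.0312), SF3B3 -0.29 (adjusted p = 0.0363) and SF3B1 -0.29 (adjusted p = 0.0357). Above 0 were SNRPA 0.68 (adjusted p = 0.0161), PRPF4B 0.45 (adjusted p = 0.0239), SF3A2 0.42 (adjusted p = 0.034) and SF3A1 0.34 (adjusted p = 0.018).

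All 3 replicates a group were used. In the main fit no single value was taken out and none was checked as an outlier by itself, while DESeq2 ran with its default outlier filter. Replicate 2 of Y79 with THZ1 is described from its count differences alone.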

How the results depend on the processing

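Scaling decides the sign of the rises. With total counts alone 14 members were called higher and 30 lower in WERI, 9 and 38 in Y79, 1 and 25 for the difference of the changes, and 30 and 7 for Y79 against WERI in DMSO. With mitochondrial scaling the counts were 0 and 56 in WERI, 0 and 52 in Y79, 4 and 10 for the difference, and 16 and 7 between the lines. These scalings move the median of all genes, as given above, which by construction shifts all members alike. Among genes reported by name whose change was called on at least 1 of the 2 scales compared, the log2 changes that turned from positive to negative with total counts alone were, in WERI, LSM8 -0.41, PRPF19 -0.39, SNRPG -0.36, SF3A3 -0.35, SNRPF -0.33, PRPF38A and SRSF12 -0.32, SRSF1 -0.28, SRSF6 -0.096, SRSF5 -0.086, SNRPE -0.058, PRPF4B -0.033, and, in Y79, LSM3 -0.48, LSM5 -0.46, SNRPF -0.38, SF3A1 and SNRPE -0.37, SRSF2 -0.36, SRSF6 -0.33, PRPF8 -0.25, SRSF11 -0.20, SRSF10 -0.14, SRSF5 -0.13, SF3B6 -0.11, SNRPD3 -0.079, SNRPC -0.066, SRSF9 -0.057. With mitochondrial scaling they were, in WERI, LSM8 -1.85, PRPF19 -1.84, SNRPG -1.81, SF3A3 -1.80, SNRPF -1.78, PRPF38A -1.77, SRSF12 -1.76, SRSF1 -1.73, SNRPC -1.64, LSM3 -1.62, SRSF6 -1.54, SRSF5 -1.53, LSM5 and SNRPE -1.51, PRPF4B -1.48, SRSF11 -1.43, SRSF8 -1.38, PRPF31 -1.37, SF3B6 -1.35, SNRPD3 -1.32, PRPF8 -1.26, SRSF7 -1.19, SNRPB -1.18, SRSF10 -1.13, SRSF9 -1.01, SRSF2 -0.98, U2AF2 -0.91, SF3B2 -0.87, SF3A2 -0.83, PRPF39 -0.72, LSM7 -0.67, PRPF40B -0.61, SNRPN -0.50, SNRPD2 -0.36, U2AF1L4 -0.18, LSM4 -0.17, and, in Y79, LSM3 -1.61, LSM5 -1.59, SF3A1 -1.52, SNRPF -1.51, SRSF2 and SNRPE -1.50, SRSF6 -1.48, PRPF8 -1.41, SRSF11 -1.34, SRSF10 -1.29, SRSF5 -1.27, SF3B6 -1.23, SNRPD3 -1.22, SNRPC -1.19, SRSF9 -1.18, PRPF31 -1.06, PRPF40B -0.89, PRPF4B -0.85, SNRPB -0.82, U2AF1L4 -0.75, SF3B2 -0.66, PRPF39 -0.65, U2AF2 -0.61, SF3A2 -0.21, SNRPN -0.039. No sign of a called member turned under RLE factors, another filter on low counts, DESeq2, a fit of the 2 groups alone, the replicate block or a left-out library.

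RLE factors gave 30 rises and 14 falls in WERI and 24 and 21 in Y79, DESeq2 31 and 14 and 25 and 21, no filter on low counts 24 and 14 and 21 and 22, a stricter filter 27 and 14 and 24 and 21, and a fit of the 2 groups alone 30 and 16 and 19 and 21, with 47 higher and 7 lower between the lines. Leaving out 1 library at a time gave 23 to 29 rises and 13 to 18 falls in WERI, 19 to 23 and 21 to 27 in Y79, 1 to 4 higher and 13 to 30 lower for the difference, and 35 to 47 higher and 2 to 7 lower between the lines. The 30 and the 7 came without replicate 2 of Y79 with THZ1. For the difference, 1 was higher without replicate 3 of WERI with DMSO, and 2 without replicate 2 or 3 of WERI with THZ1 or replicate 1 or 2 of Y79 with DMSO. Whether the replicate numbers shared by the groups pair the cultures is not settled. Deviations of same-numbered libraries correlated at -0.0438 to 0.0147, which with 3 cultures a group cannot exclude pairing. With the replicate block 26 rose and 14 fell in WERI, 23 and 21 in Y79, 1 was higher and 14 lower for the difference, and 39 higher and 4 lower between the lines. Summing U2AF1 and U2AF1L5 was chosen after seeing the data and gave calls for the difference and between the lines (0.52, adjusted p = 0.00312) that U2AF1 alone did not have. The same sum without replicate 2 of Y79 with THZ1 was also added after seeing the data and is given above.

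U2AF1L4 had 1638 counts over the 12 libraries. Simulated data for THZ1 against DMSO had 3 cultures a group, with a small set of features changed up or down in the treated group. All other features kept the same mean in all groups, with the fitted scale and spread. At a mean of at least 8 CPM, 71.4% of the 28 changes of 1.5-fold were found in each line. Of the 40 changes of 2-fold, 92.5% were found in WERI (18405 features) and 100% in Y79 (18344 features). Of the simulated calls 2.56% were false in WERI and 8.53% in Y79. In the real data 64.8% and 68.3% of all genes were called, so these rates need not hold for the calls given here.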

Other observations

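Regulators around the spliceosome were mixed, on the TMM scale. Of 50 hnRNP proteins and tissue splicing regulators, 22 rose and 11 fell in WERI (44% and 22%) and 23 rose and 13 fell in Y79 (46% and 26%), with medians of 0.20 and 0.29, where of all genes 27.7% rose and 37.2% fell in WERI and 29.9% and 38.5% in Y79, with medians of -0.11 and -0.09. ESRP2, a splicing regulator of epithelia, had the largest fitted rise, at 2.79 and 2.52, from under 1 CPM in every group mean. PCBP1, a binder of C-rich RNA, changed by -0.72 in WERI and -1.44 in Y79. ELAVL2, a neuronal RNA-binding protein, changed by -2.05 in WERI and by -0.31 in Y79, not called, where it had 1.13 CPM with THZ1 and 1.41 CPM with DMSO.

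Of 11 kinases and transporters of SR proteins, 5 rose and 6 fell in WERI (45.5% and 54.5%) and 3 rose and 4 fell in Y79 (27.3% and 36.4%), beside 27.7% and 37.2% of all genes in WERI and 29.9% and 38.5% in Y79. CLK3, a kinase of SR proteins, changed by -1.17 and -1.69, DYRK1B by -1.37 and -0.74, and SRPK3 by 1.24 and 2.15 on the TMM scale. Of 25 SR-related and exon junction genes, 10 rose and 7 fell in WERI (40% and 28%) and 8 rose and 11 fell in Y79 (32% and 44%). SRRM2, a large scaffold of nuclear speckles, rose by 1.28 and 1.05 on the TMM scale, DDX39B by 0.67 and 1.12. EIF4A3, the anchor of the exon junction complex, changed by -0.65 in WERI and -1.53 in Y79, and SCAF1 by -0.94 and -1.39. Of 14 nonsense-mediated decay factors, 4 rose and 6 fell in WERI (28.6% and 42.9%) and 5 rose and 6 fell in Y79 (35.7% and 42.9%). SMG9 changed by -1.59 and -2.18, UPF3A by 0.95 and 0.76, and the endonuclease SMG6 by 0.47 and 1.16 on the TMM scale. All of these rises are relative to the bulk of genes, and their sign under mitochondrial scaling was not computed here.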
